A study of Mus musculus with 6 samples.

Results

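Transcripts of the cyclins and cyclin-dependent kinases (Cdks) that carry a cell from G1 into S phase were examined in tetraploid and diploid mouse hepatocytes. The genes were Ccnd1, Ccnd2 and Ccnd3 for the D cyclins, Ccne1 and Ccne2 for the E cyclins, Ccna2 for cyclin A2, the kinase genes Cdk2, Cdk4 and Cdk6, and Cdkn1b for the inhibitor p27. All array probe sets annotated with exactly 1 of these symbols were taken, which gave 22 probe sets for 10 of 10 listed genes. The arrays measured 22626 probe sets without controls, covering 12393 genes. Both groups were freshly isolated liver cells of wild type C57BL/6 mice aged 3 weeks, stained alive with Hoechst 33342, a DNA dye, and separated by flow cytometry. The tetraploid group and the diploid group each had 3 arrays. Both groups shared the strain, the age, the staining and the sort, and no other genotype or treatment was named. The sort read DNA content only, so diploid cells in G2 or mitosis have the DNA content of the tetraploid gate. The labels name no animals behind the biological replicates. A p-value here therefore describes sample-to-sample spread only, part of which may be technical.

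D cyclins are made in response to growth signals and activate Cdk4 and Cdk6, which begin the phosphorylation of the retinoblastoma protein. E cyclins then activate Cdk2 at the entry into S phase, and cyclin A2 takes over Cdk2 during S phase and acts with Cdk1 later. The protein p27 binds and holds cyclin E and Cdk2 complexes inactive until it is degraded. E2F transcription factors, released from retinoblastoma proteins, switch on the genes of both E cyclins. In the liver, hepatocytes of young mice still divide, and some duplicate their genome without dividing.

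Promoter sequences of Ccne1 and Cdkn1b are shown because they stand on opposite sides of the comparison below, and that of Cdk2 because it is the kinase partner of the E cyclins. RefSeq promoter windows of assembly GRCm38.p6, each 300 bases long with 250 bases before the start of the gene and 50 after it, were matched by symbol for 6 of the 10 genes. Capitals mark exact copies of the E2F-type motifs TTTCGCGC, TTTGGCGC or TTTCCCGC, or of the GC box GGGCGG, on either strand, with overlapping copies merged. The windows are chr7:38107441-38107740 on the minus strand for Ccne1, chr10:128705002-128705301 on the minus strand for Cdk2, and chr6:134920151-134920450 on the plus strand for Cdkn1b.
Ccne1: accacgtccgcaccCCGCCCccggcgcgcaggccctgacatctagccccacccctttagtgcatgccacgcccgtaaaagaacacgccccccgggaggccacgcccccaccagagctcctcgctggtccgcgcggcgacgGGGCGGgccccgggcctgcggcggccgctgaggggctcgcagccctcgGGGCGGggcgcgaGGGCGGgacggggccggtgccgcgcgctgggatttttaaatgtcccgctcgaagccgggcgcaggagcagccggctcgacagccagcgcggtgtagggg
Cdk2: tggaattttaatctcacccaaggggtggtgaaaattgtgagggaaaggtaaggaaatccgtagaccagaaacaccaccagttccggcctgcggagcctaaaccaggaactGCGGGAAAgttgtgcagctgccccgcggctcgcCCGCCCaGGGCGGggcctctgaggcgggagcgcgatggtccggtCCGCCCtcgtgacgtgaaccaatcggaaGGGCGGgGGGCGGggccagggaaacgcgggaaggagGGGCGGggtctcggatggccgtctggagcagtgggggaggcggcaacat
Cdkn1b: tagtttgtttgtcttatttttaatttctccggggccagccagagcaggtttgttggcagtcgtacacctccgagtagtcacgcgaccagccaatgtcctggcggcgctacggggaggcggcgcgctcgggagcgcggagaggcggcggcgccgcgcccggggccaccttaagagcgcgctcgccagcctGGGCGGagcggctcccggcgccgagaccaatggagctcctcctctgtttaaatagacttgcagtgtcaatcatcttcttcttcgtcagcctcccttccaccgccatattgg
The Ccne1 window held 0 copies of the 3 E2F-type motifs and 4 of the GC box. The Cdk2 window held 1 copy of TTTCCCGC, read on the opposite strand and beginning at position -140 from the gene start, and 6 of the GC box. The Cdkn1b window held 0 E2F-type motifs and 1 GC box. Of all 32851 windows of this length, 1.84% held any of the 3 E2F-type motifs and 35.7% a GC box. A match to letters is a description and not a binding site.

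None of the 22 probe sets passed an adjusted p of 0.05 in limma, and 0 of 22626 passed over the whole array (0%). At an unadjusted p under 0.05 there were 3 of the 22 (13.6%), against 6.9% of all probe sets (1561). These 3 were the single probe sets of Ccne1 and Ccne2, which averaged less in tetraploid cells, and the brighter of the pair for Cdkn1b, which averaged more. Fractions that did not overlap were seen in 4 of the 22, the same 3 and 1 of Cdk4, against 12.7% of all probe sets. Of the 22, 14 averaged less in tetraploid cells (63.6%, against 51.9% of all probe sets), and the median log2 difference, tetraploid minus diploid, was -0.03, against -0.01. That median was 0.002 without tetraploid replicate 1 and 0.02 without diploid replicate 1. Without probe sets that can match several transcripts, 8 of 16 averaged less and the median was 0.008. Taking the brightest probe set of each gene, 8 of 10 genes averaged less in tetraploid cells, against 55.5% of all genes, and the median was -0.13, against -0.02. Each value is relative to the rest of its own array, so an equal change of all RNA per cell is not visible. In sorted bulk samples, fewer cells that express a gene and less RNA per cell cannot be told apart.

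**Figure D1:**
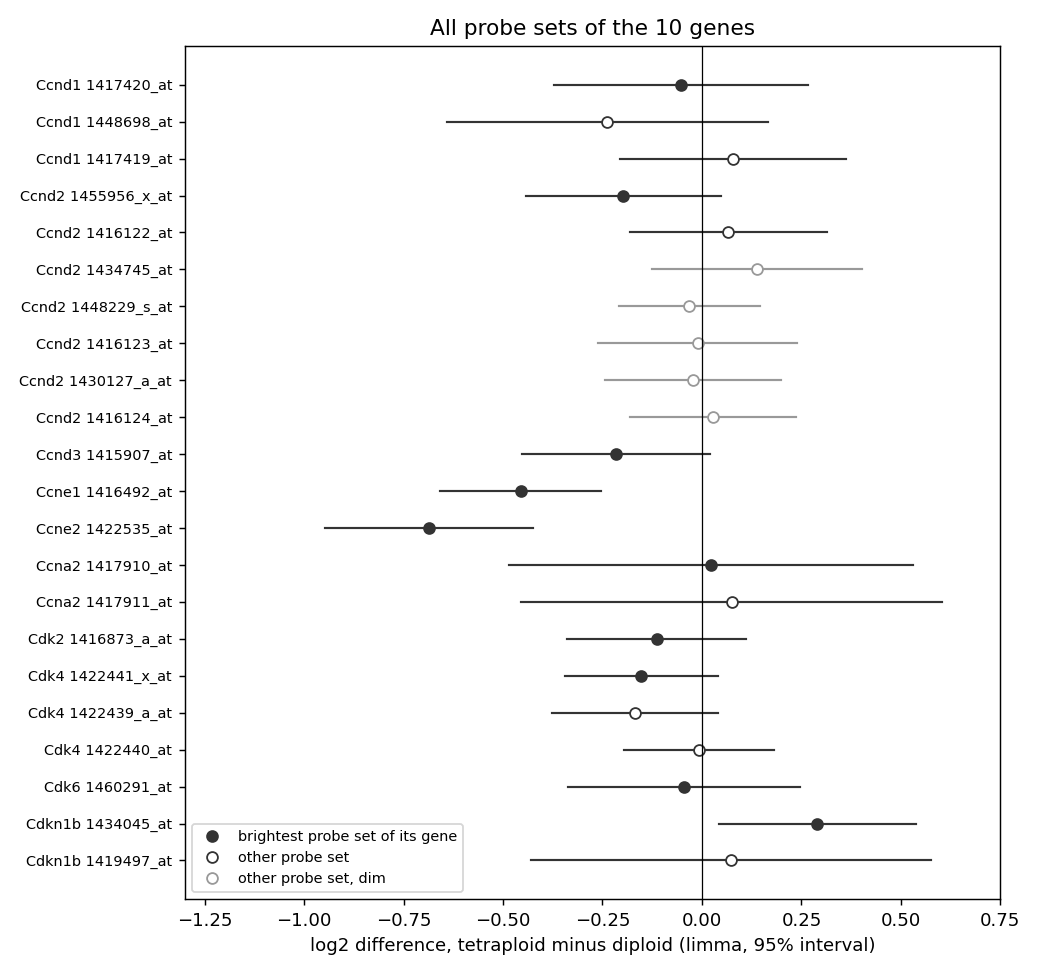
Log2 difference (tetraploid minus diploid) on the horizontal axis for each of the 22 probe sets on the vertical axis, with limma's 95% interval. Filled points are the brightest probe set of a gene and grey ones lie among the 25% dimmest of the array. The intervals of Ccne1, Ccne2 and 1 Cdkn1b probe set leave out 0, before any adjustment for the number of probe sets.

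The E cyclin transcripts showed the widest separation of the fractions among the 10 genes. Ccne2, cyclin E2, had intensities of 140.6, 131.4 and 132.6 in tetraploid cells, against 190.8, 256.1 and 209.0 in diploid cells. Every tetraploid array lay under every diploid array, and the tetraploid arrays were close together while diploid replicate 2 stood highest. On the log2 scale the means were 7.07 ± 0.05 and 7.76 ± 0.22 (SD, n = 3 each), a difference of -0.69 ± 0.11 (SE), with a 95% interval from -0.95 to -0.43. The unadjusted limma p was 0.000274, rank 23 of 22626, and the adjusted p was 0.263. This is a level 0.621 times that of diploid cells.

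Ccne1, cyclin E1, had intensities of 97.3, 96.8 and 92.9 in tetraploid cells, against 137.1, 118.6 and 138.9 in diploid cells. The fractions again did not overlap, and diploid replicate 2, the highest array for Ccne2, was the lowest diploid array for Ccne1. The log2 means were 6.58 ± 0.04 and 7.04 ± 0.13 (SD, n = 3 each), a difference of -0.46 ± 0.09 (SE) with an interval from -0.66 to -0.25. Limma gave an unadjusted p = 0.000758 and an adjusted p = 0.293. The log2 difference for Ccne2 exceeded that for Ccne1 by -0.23, with p = 0.3 in an exact two-sided permutation test over the arrays, and an adjusted p = 0.75 over 5 pairs of related genes. Without diploid replicate 2 the gap between the E cyclins was -0.04. A permutation test of 3 arrays against 3 cannot give a p under 0.1.

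Leaving out each array in turn kept Ccne2 between -0.78 and -0.57 and Ccne1 between -0.53 and -0.41. Each gene was measured by 1 probe set, so no other probe set bears on it. The summed level of lymphocyte markers also separated the fractions, with 4 of 5 measured genes averaging less in tetraploid cells. Their summed intensity ran from 135.1 to 156.6 in tetraploid cells and from 163.3 to 172.5 in diploid cells. Ptprc, Cd3g and Cd79b were among the 25% dimmest of the array, and Cd79a lay close to them, at percentile 28.7. Cd79a differed by -0.42 ± 0.08, Cd3e by -0.21 ± 0.10 and Cd3g by -0.14 ± 0.08 (SE). These 3 had fractions that did not overlap, as did 11.8% of all genes in either direction. Cd79b differed by 0.07 ± 0.12 and Ptprc by -0.02 ± 0.11 (SE), both with overlapping fractions. The part of such cells in the E cyclin difference was not tested.

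**Figure D2:**
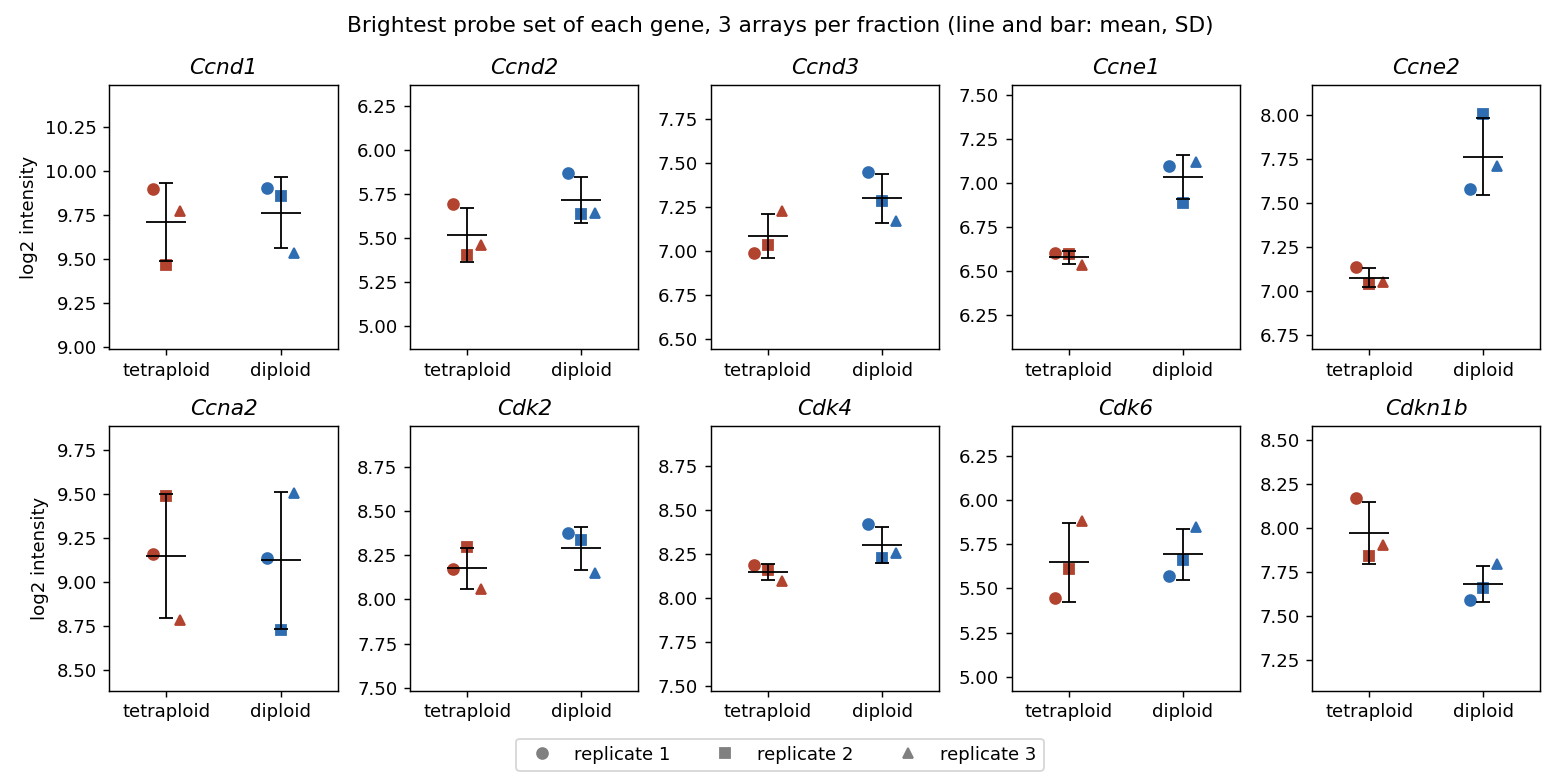
Log2 intensity (vertical axis) of the brightest probe set of each of the 10 genes on the 3 tetraploid arrays (red, left) and the 3 diploid arrays (blue, right). Symbols give the replicate number, horizontal lines the mean and bars the SD, and every panel spans the same log2 range. Ccne1, Ccne2, Cdk4 and Cdkn1b have fractions that do not overlap.

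Cdkn1b, the gene of p27, leaned the other way. Its brighter probe set, 1434045_at, had intensities of 288.4, 229.5 and 239.6 in tetraploid cells, against 193.1, 202.0 and 222.3 in diploid cells. The fractions did not overlap, but the lowest tetraploid array lay just above the highest diploid array, and tetraploid replicate 1 stood well above the rest. The log2 means were 7.97 ± 0.18 and 7.68 ± 0.10 (SD, n = 3 each), a difference of 0.29 ± 0.11 (SE) with an interval from 0.04 to 0.54. Limma gave an unadjusted p = 0.0266 and an adjusted p = 0.697. The unadjusted value was no longer under 0.05 without tetraploid replicate 1 (log2 difference 0.19), diploid replicate 1 (0.25) or diploid replicate 2 (0.28). The dimmer probe set, 1419497_at, had 36.1, 54.7 and 36.7 in tetraploid cells, against 52.1, 39.4 and 30.3 in diploid cells. Its fractions overlapped, and its difference of 0.07 ± 0.22 (SE) had an interval from -0.43 to 0.58 that covers the value of the brighter one.

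Cyclin A2 varied widely between arrays of the same fraction. Ccna2 probe set 1417910_at had intensities of 571.3, 719.5 and 441.8 in tetraploid cells, against 563.9, 423.5 and 725.5 in diploid cells. Tetraploid replicate 2 and diploid replicate 3 were high, and tetraploid replicate 3 and diploid replicate 2 were low. The log2 values spanned 0.70 in tetraploid and 0.78 in diploid cells, while the means differed by 0.02 ± 0.22 (SE), with an interval from -0.49 to 0.53. The dimmer Ccna2 probe set, 1417911_at, had the same highest and lowest arrays within each fraction. It had intensities of 203.2, 301.0 and 172.6 in tetraploid cells, against 220.6, 158.3 and 258.9 in diploid cells, a log2 difference of 0.07 ± 0.23 (SE). The sign turned for both when a high tetraploid or a low diploid array was left out, at -0.15 without tetraploid replicate 2 for both, and -0.18 and -0.12 without diploid replicate 2.

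The mean of 10 genes of G2 and mitosis had the same order of arrays within each fraction as Ccna2, although 1 of them, Cdc20, was highest on tetraploid replicate 1. This mean, as log2 intensity minus the mean of each gene over the 6 arrays, was -0.03, 0.29 and -0.30 on tetraploid replicates 1 to 3. On diploid replicates 1 to 3 it was 0.03, -0.31 and 0.33. Their summed intensity ran from 2755 to 4259 in tetraploid cells and from 2734 to 4307 in diploid cells, so the ranges overlapped. Single genes leaned opposite ways, with 6 of 10 averaging less in tetraploid cells, so this sum cannot compare the content of such cells. Top2a differed by -0.53 ± 0.26 and Aurkb by -0.34 ± 0.15, against 0.52 ± 0.28 for Ccnb2 and 0.33 ± 0.21 for Cenpf (SE). The fractions overlapped for all 10 genes. Between the lowest and the highest array, Ccne1 spanned 0.07 in tetraploid and 0.23 in diploid cells on the log2 scale, and Ccne2 spanned 0.10 in tetraploid and 0.42 in diploid cells. The part of cycling cells in the Ccna2 values was not tested.

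**Figure D3:**
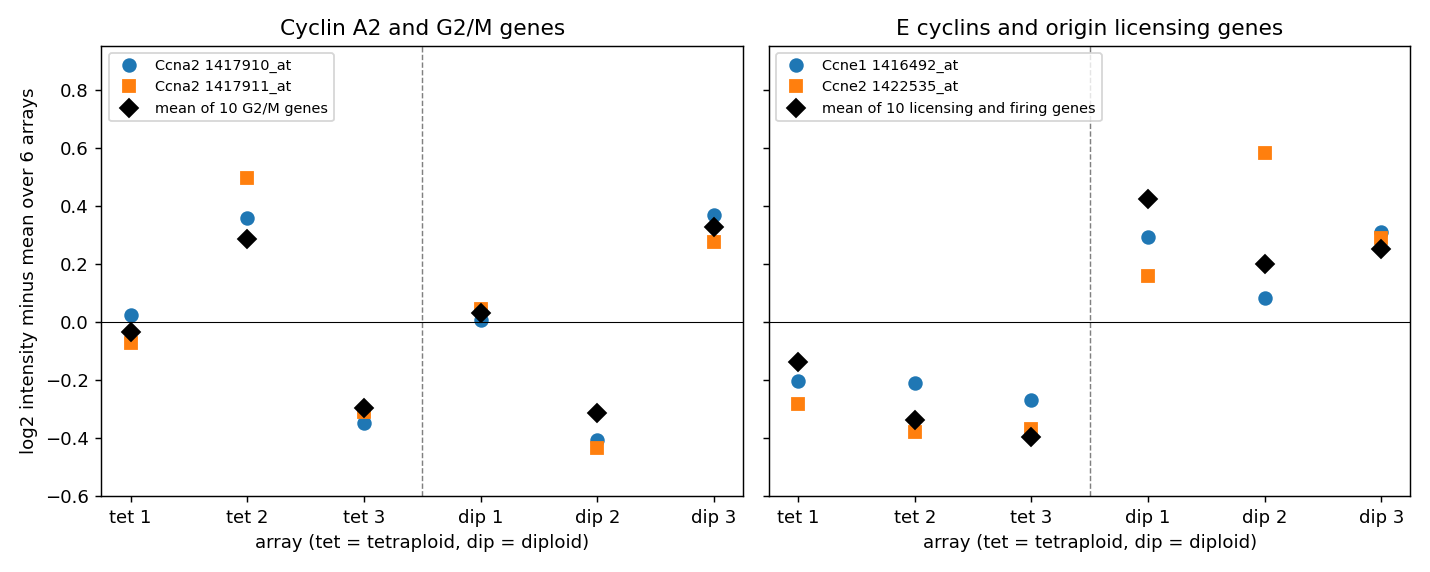
Log2 intensity minus the mean over the 6 arrays (vertical axis) on each array (horizontal axis, tetraploid left of the dashed line), for Ccna2 with the mean of 10 G2 and mitosis genes on the left, and for Ccne1 and Ccne2 with the mean of 10 origin licensing and firing genes on the right. Ccna2 is high on tetraploid replicate 2 and diploid replicate 3, whereas the E cyclins lie below 0 on all tetraploid arrays and above 0 on all diploid arrays.

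The D cyclins, which carry growth signals to the cell cycle, did not separate the fractions. Ccnd1, cyclin D1, had intensities of 953.3, 707.1 and 874.6 in tetraploid cells, against 956.0, 928.2 and 741.0 in diploid cells by its brightest probe set. The groups overlapped, and the log2 difference was -0.05 ± 0.14 (SE), with an interval from -0.37 to 0.27. The other 2 probe sets differed by -0.24 ± 0.18 and 0.08 ± 0.12. The sign of the brightest one turned without tetraploid replicate 2 (0.07) or diploid replicate 1 (0.02), and that of the third without diploid replicate 3 (-0.05).

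Ccnd3, cyclin D3, had a single probe set with intensities of 127.1, 131.1 and 149.7 in tetraploid cells, against 174.5, 155.6 and 144.2 in diploid cells. Tetraploid replicate 3 lay inside the diploid range, and the log2 difference was -0.22 ± 0.10 (SE), with an interval from -0.45 to 0.02. Limma gave an adjusted p = 0.743. Ccnd2, cyclin D2, was dim, with 5 of its 7 probe sets among the 25% dimmest of the array, where differences are compressed. Its brightest probe set, of a kind that can match several transcripts, had 51.7, 42.3 and 44.1 in tetraploid cells, against 58.4, 49.8 and 49.9 in diploid cells. The fractions overlapped by 1 tetraploid array, and the log2 difference was -0.20 ± 0.11 (SE). The next brightest Ccnd2 probe set, 1416122_at, differed by 0.07 ± 0.11 in the other direction, so the probe sets of this gene disagree. The 5 dim ones differed by -0.03 to 0.14, all with overlapping fractions. Pairwise, the log2 changes of Ccnd1 and Ccnd2, Ccnd1 and Ccnd3, and Ccnd2 and Ccnd3 differed by 0.14, 0.16 and 0.02, with p = 0.3, 0.5 and 0.9 in exact permutation tests (adjusted p = 0.75, 0.75 and 0.9). The first of these was -0.07 when all probe sets of a gene were averaged, and the last was -0.11 without tetraploid replicate 1 and -0.01 without diploid replicate 2.

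The kinase genes differed little between fractions. Cdk4, a partner of the D cyclins, had 291.1, 286.3 and 274.2 in tetraploid cells, against 342.1, 299.6 and 305.9 in diploid cells by its brightest probe set. All tetraploid arrays lay under all diploid arrays, with a log2 difference of -0.15 ± 0.08 (SE) and an interval from -0.34 to 0.04. Limma gave an adjusted p = 0.791. The next Cdk4 probe set gave -0.17 ± 0.09 with overlapping fractions, and both are of kinds that can match several transcripts. The third, 1422440_at, gave -0.007 ± 0.082, with a sign that turned without tetraploid replicate 1 or 3 or diploid replicate 1 or 2 (0.01 to 0.02).

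Cdk6, the other partner of the D cyclins, had 43.6, 48.9 and 59.1 in tetraploid cells, against 47.5, 50.5 and 57.7 in diploid cells. The groups overlapped almost entirely, with a log2 difference of -0.05 ± 0.13 (SE) that turned to 0.06 without tetraploid replicate 1 and to 0.03 without diploid replicate 3. The log2 change of Cdk6 exceeded that of Cdk4 by 0.11 (p = 0.6 and adjusted p = 0.75, exact permutation test that cannot give a p under 0.1). The gap was -0.04 without tetraploid replicate 3 and -0.01 without diploid replicate 1. Cdk2, the partner of the E cyclins and cyclin A2, had 288.4, 314.1 and 266.9 in tetraploid cells, against 333.0, 323.4 and 284.6 in diploid cells. These overlapped, and the log2 difference was -0.11 ± 0.10 (SE) with an interval from -0.34 to 0.11. The intervals leave room for modest differences in each kinase gene.

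Among all genes outside the dimmest 25%, Ippk, Rps6kc1, Neurl1a, Prdm9 and Ocstamp followed Ccne2 most closely over the 6 arrays, with Pearson r between 0.968 and 0.993. They were picked from 9294 genes by this likeness alone, and the points share the split into fractions. Their own log2 differences were smaller, from -0.36 for Ocstamp to -0.23 for Neurl1a. Of the other cell cycle genes here, Ccne1 had r = 0.80 with Ccne2 and stood at rank 251, while Cdkn1b had r = -0.67.

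Other genes of the pathway were grouped into 7 lists by function, and by their brightest probe sets 0 genes passed an adjusted p of 0.05 in limma. Against these counts, 4.02% of all genes averaged less and 1.84% more in tetraploid cells at an unadjusted p under 0.05. The origin licensing and firing genes, whose products are acted on by S phase Cdks or work beside them, had the largest median shift. The lists were chosen with earlier results of these data known, so this order of lists is a description only. Of 10 measured, 9 averaged less in tetraploid cells, 7 of them at an unadjusted p under 0.05, and the list median was -0.56. Cdc6, which loads the replicative helicase at origins, differed by -1.22 ± 0.19, Mcm4, a helicase subunit, by -1.13 ± 0.18, and Cdc45, a helicase cofactor, by -0.64 ± 0.09 (SE, n = 3 per fraction). The adjusted p was 0.227, 0.227 and 0.210 for Cdc6, Mcm4 and Cdc45.

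Of 10 measured pocket protein and E2F genes, 8 averaged less in tetraploid cells, 3 of them at an unadjusted p under 0.05, with a median of -0.14. These were Rbl1, the pocket protein p107, at -0.61 ± 0.12, E2f8, a repressor of the E2F family, at -0.68 ± 0.19, and E2f1, an activator, at -0.51 ± 0.18 (SE). Their fractions did not overlap, as was the case for 11.8% of all genes in either direction. Second probe sets gave -0.15 for Rbl1 and -0.18 for E2f1.

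Turnover genes of cyclins and p27 had 7 of 12 measured members averaging less, 0 at an unadjusted p under 0.05, and a median of -0.04. Skp2, the ubiquitin ligase subunit that recognises p27, differed by -0.37 ± 0.18, and all 6 of its probe sets averaged less in tetraploid cells. Cks1b, the cofactor of Skp2 in that recognition, differed by -0.30 ± 0.16, and its second probe set by -0.30. Skp1, the adaptor of the same ligase, differed by 0.09 ± 0.07 (SE). The Skp2 and Cks1b fractions overlapped, and those of Skp1 did not, as was the case for 11.8% of all genes.

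Other Cdk inhibitors numbered 6, of which 4 averaged less, 0 at an unadjusted p under 0.05. Cdkn1c, the inhibitor p57 and a relative of p27, differed by 0.31 ± 0.14, Cdkn2c by -0.10 ± 0.10 and Cdkn2b by -0.10 ± 0.12 (SE), the last among the dim genes. Genes that set the phosphorylation of Cdks split, with 3 of 8 averaging less, 1 lower and 1 higher at an unadjusted p under 0.05. Wee1, a kinase that inhibits Cdks, differed by -0.26 ± 0.08, and its second probe set by -0.06. Cdc25b, a phosphatase that activates Cdks and here a dim gene, differed by 0.25 ± 0.08. Cdk7, the Cdk-activating kinase, differed by 0.19 ± 0.09 (SE). The fractions of Wee1, Cdc25b and Cdk7 did not overlap, as was the case for 11.8% of all genes in either direction.

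Of 20 other measured cyclin and Cdk genes, 12 averaged more in tetraploid cells, 2 of them at an unadjusted p under 0.05, with a median of 0.008. Ccng1, cyclin G1, a target of p53, differed by 0.47 ± 0.11, and Ccnc, cyclin C of the Mediator kinase module, by 0.30 ± 0.12 (SE). All 3 probe sets of each gene averaged more in tetraploid cells. Ccnb2, cyclin B2 of mitosis, differed by 0.52 ± 0.28 with overlapping fractions. Of 11 measured inducers upstream of the G1 cyclins, 7 averaged more, 1 at an unadjusted p under 0.05. This was Lgr5, a receptor of Wnt signalling, at 0.29 ± 0.10, while Foxm1 differed by -0.14 ± 0.09 and Jun by 0.15 ± 0.13 (SE).

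**Figure D4:**
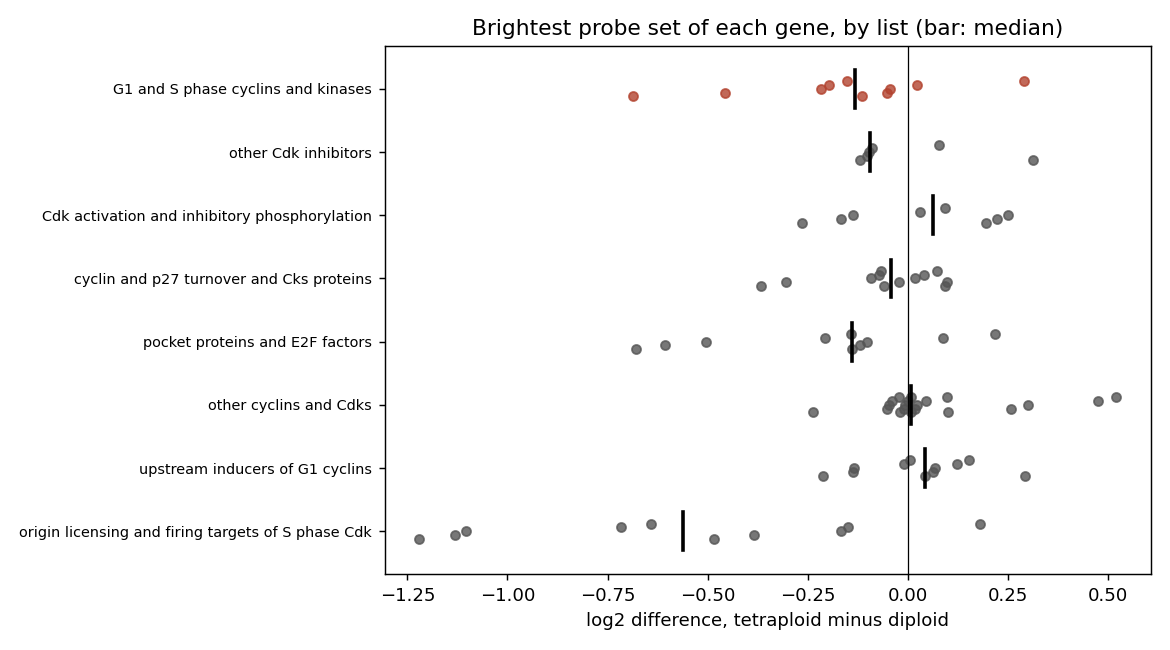
Log2 difference (tetraploid minus diploid, horizontal axis) of the brightest probe set of each gene, as points, for the 10 cyclin, kinase and inhibitor genes (red, top) and 7 lists of other pathway genes (grey). Vertical bars are medians. The median of the origin licensing and firing list lies at -0.56, and those of the other lists shown between -0.14 and 0.06.

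Pearson correlations between arrays, across probe sets, ran from 0.992 to 0.997 over 15 pairs. Hepatocyte markers were at similar levels, with 4 of 8 measured genes averaging more in tetraploid cells. Their summed intensity ran from 225946 to 236637 in tetraploid and from 223160 to 234898 in diploid cells. These genes lie near the top of the array, where RMA gives the arrays nearly equal distributions, so this sum cannot compare hepatocyte content. Summed markers of macrophages, stellate cells and fibroblasts, cholangiocytes, erythroid cells and endothelial cells overlapped between the fractions.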

How the data were processed

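Total RNA of sorted cells was hybridised as biotin-labelled cRNA to 6 Affymetrix arrays, per the labels' protocols. The deposited values are 1 intensity per probe set and array, made with RMA per the submitters' processing notes. Their linear scale was read from the values, and the RMA version was not stated in these notes. RMA gives the arrays nearly equal distributions, so differences in total RNA are removed. The deposited table has 22690 probe sets. After removal of 64 control probe sets, all 22626 others were tested on log2 intensity. The platform annotation gave 1 gene symbol to 20380 of these, several to 691 and none to 1555. The test was limma 3.58.1 (R 4.3.3), two-sided, by lmFit and eBayes, and its only factor was the fraction. Benjamini-Hochberg adjustment ran over all 22626 probe sets. The adjusted threshold was 0.05. Precision is limited by having 3 arrays a fraction, with a median SE of 0.0987 for a log2 difference. A gene of a list is given by its brightest probe set over the 6 arrays, and of each list the 3 genes with the smallest p are named. The 5 genes closest to Ccne2 were chosen by Pearson r. Differences between related genes were tested by exact permutation of the 20 labellings. The method was tested on simulated data. The genes and lists were chosen with earlier results of these data known. Alternatives were a filter on dim probe sets, 1 probe set a gene, a log offset of 16, an intensity trend, array weights, a second quantile normalization, a replicate block, leaving out probe sets that can match several transcripts, and leaving out each array.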

Additional observations from a re-analysis of the deposited data

How the results depend on the processing

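Over 14 alternatives, 0 of the 22 probe sets passed an adjusted p of 0.05, and 2 to 4 had an unadjusted p under 0.05. Ccne1 and Ccne2 stayed lower and the brighter Cdkn1b probe set higher in tetraploid cells throughout. Over these alternatives and the main setting, the adjusted p ran from 0.209 to 0.674 for Ccne2, from 0.254 to 0.811 for Ccne1 and from 0.629 to 0.999 for Cdkn1b. With the replicate number as a block, 10 probe sets of the array passed, 0 of them among the 22. They included 1 gene of the 7 pathway lists, Cdc6 (adjusted p = 0.0480), where 0 list genes passed without the block or under the other alternatives. In the whole array, leaving out 1 array gave 0 to 1 probe sets (Hells, without tetraploid replicate 1). Deviations of same-numbered arrays correlated at 0.44, -0.15 and -0.16, so the numbers were not taken as pairs. Tetraploid replicate 2 correlated at 0.56 with diploid replicate 3, and tetraploid replicate 3 at 0.24 with diploid replicate 2. Whether such arrays share a source is not in the labels, and the main test takes no account of it. Of the genes named in the report, the block by replicate number changed no call but that of Cdc6. The median of the member probe sets was -0.13 with 1 probe set a gene, and -0.0909 to 0.0167 when each array was left out. Of 285 single probe set values under alternatives, 28 had the opposite sign, from 12 probe sets whose own difference was at most 0.08 in size. The cause was not tested. With array weights Ccnd2 1416123_at was 0.0191 and Cdk4 1422440_at 0.0018, and with a second quantile normalization Ccnd2 1416123_at was 0.0170, Ccnd2 1430127_a_at 0.0128 and Ccna2 1417910_at -0.00771. Leaving out each array gave -0.168 to 0.0704 for Ccnd1 1417420_at, -0.0497 to 0.171 for Ccnd1 1417419_at, -0.0478 to 0.138 for Ccnd2 1416122_at, -0.0676 to 0.00197 for Ccnd2 1448229_s_at, -0.115 to 0.0582 for Ccnd2 1416123_at, -0.0914 to 0.0368 for Ccnd2 1430127_a_at and -0.0349 to 0.102 for Ccnd2 1416124_at. It gave -0.176 to 0.213 for Ccna2 1417910_at, -0.154 to 0.247 for Ccna2 1417911_at, -0.0515 to 0.0176 for Cdk4 1422440_at, -0.164 to 0.0557 for Cdk6 1460291_at and -0.123 to 0.270 for Cdkn1b 1419497_at. The change of Ccnd1 minus that of Ccnd2 was -0.0670 with all probe sets averaged. Leaving out each array gave -0.114 to 0.119 for Ccnd2 minus Ccnd3 and -0.0367 to 0.226 for Cdk6 minus Cdk4. Signals near the array background, as for Ccnd2, limit what can be seen.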
